A study of Mus musculus with 2 samples.

Results

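The genes of glycolysis, lactate handling and glucose transport were followed as a set of 34 members chosen by name, all of which had a row among the 32285 genes of the deposited count tables. The set holds the glucose transporters Slc2a1 and Slc2a3, the enzymes from hexokinase to lactate dehydrogenase, the PFKFB enzymes that set the level of the phosphofructokinase activator, the lactate carriers Slc16a1, Slc16a3 and Slc16a8 with their chaperone Bsg, the genes that admit pyruvate to the mitochondrion, and Taldo1 of the pentose phosphate pathway. They were measured by single-cell RNA sequencing of the 3' ends of transcripts in mouse retinal pigment epithelium (RPE) and choroid at 10 weeks of age. The Tsc1 flox library came from Tsc1tm1Djk/J mice with no Cre named in the labels, and the Tsc1 RPE KO library from Tsc1tm1Djk/J mice that also carry Best-Cre, described in the labels as RPE-specific. Both groups therefore carry the floxed Tsc1 allele, each library pools tissue of 1 male and 1 female, and the fraction of RPE cells in which Cre acted is not given. The neural retina had been taken away and live cells sorted, so the retinal cells below are those that stayed with the eyecup. The series is titled for DARPP32 as a target of overactive mTORC1 in the RPE.

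Each genotype is a single library, so genotypes are compared by their values alone, without p-values. Values are UMIs (unique molecular identifiers, 1 per captured RNA molecule) summed over the cells of a class and given as CPM, counts per 1000000 UMIs of that class. A UMI is counted once per molecule at its 3' end, so CPM was not divided by transcript length, and a comparison between genes assumes that their ends were captured alike. All intervals are exact 95% intervals for counting error and leave out the spread over cells, mice and preparations.

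Glycolysis turns glucose into pyruvate in the cytoplasm. Pyruvate then enters the mitochondrion through the MPC carrier and is oxidised by pyruvate dehydrogenase, or it is reduced to lactate by lactate dehydrogenase. Several steps have isoforms from separate genes: LDHA subunits favour forming lactate and LDHB subunits favour using it, and the lactate carriers MCT1 (Slc16a1), MCT3 (Slc16a8) and MCT4 (Slc16a3) need basigin (Bsg) or a related protein to reach the membrane. In the outer retina the RPE passes glucose from the choroid to photoreceptors, which make much of it into lactate, and MCT3 is known from the basal side of the RPE.

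After filtering, 1524 cells remained for Tsc1 flox and 1853 for the knockout pool, at median depths of 4525 and 4617 UMIs. Clusters were named from marker genes that include no member, and 11 classes had at least 10 cells in each library. RPE-like cells numbered 12 and 44 (32094 and 105341 UMIs), Tsc1 flox first here and below, and rod-like cells 42 and 176 (115824 and 603722 UMIs). The stroma was represented by 266 and 178 fibroblast-like and 41 and 48 endothelial-like cells, and the leukocytes by B, T, NK, macrophage, nonclassical monocyte, plasmacytoid dendritic and mast cell-like classes. Of the marker lists, 9 of 11 RPE markers were detected in the RPE-like cells of each library (Best1 and Pmel were at 0), and 10 of 10 rod markers in the rod-like cells. The highest marker average was cone for cluster 8 of the rod-like cells (25 and 156 cells). It was neutrophil for cluster 10 of the nonclassical monocyte-like cells (30 and 118 cells). Both clusters took their names by a condition set after the clusters had been seen. The macrophage-like class is cluster 7 (101 and 94 cells), with 3 passing macrophage markers. Its 10 leading genes held 1 macrophage marker, Mrc1, and 1 classical monocyte marker, F13a1. Its name therefore does not separate macrophages from classical monocytes. RPE-like barcodes with 10 or more UMIs of leukocyte markers, 2 in Tsc1 RPE KO, were left out. Rod markers in RPE-like cells came to 10 and 45 UMIs, at most 0.0838% and 0.26% of a cell's UMIs. RPE markers in rod-like cells came to 7 and 77 UMIs. The lists of the 2 libraries shared 182035 barcodes, of which 2 were called as cells in both. No UMI of Tsc1 fell in RPE-like cells of either library, where a count of 0 allows up to 93.5 and 28.5 CPM (3 counts). Over all cells Tsc1 stood at 22.4 and 19.9 CPM, so these 3' counts do not check the deletion.

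RPE-like cells had the higher sum of transporter genes, most of it Bsg, and rod-like cells the higher sum of enzymes. The 6 transporter genes (Slc2a1, Slc2a3, the lactate carriers and Bsg) summed to 13118 CPM (11894 to 14433) and 9161 CPM (8592 to 9757) in RPE-like cells, against 1002 and 961 CPM in rod-like cells. The 18 enzymes from hexokinase to lactate dehydrogenase summed to 12139 CPM (11513 to 12791) and 12284 CPM (12006 to 12567) in rod-like cells, against 4300 CPM and 4519 CPM in RPE-like cells. Fibroblast-like cells had 1574 and 1738 CPM of these enzymes and B cell-like cells 1060 and 1255 CPM. Of the 11 classes, rod-like cells had the highest enzyme sum in each library, RPE-like cells the next and B cell-like cells the lowest. A level 2-fold lower in RPE-like than in rod-like cells in both libraries was common, at 44.4% of 3095 genes.

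A class was taken to lead for a gene where it had the highest CPM in both libraries and stood at least 2-fold above the next class in each. By that rule 19 of the 34 members had a leading class, where 17.3% of all 12038 genes with at least 50 UMIs had one. RPE-like cells led for 5 members (Ldhb, Slc16a1, Slc16a8, Bsg and Mpc1), beside 1.67% of all genes. Rod-like cells led for 10 (Hk1, Hk2, Pfkl, Pfkfb2, Aldoc, Gapdh, Pgam1, Eno2, Pkm and Pdhb), beside 4.74%. Nonclassical monocyte-like cells led for Eno3 and Slc16a3, beside 0.54%, and mast-like cells for Hk3 and Mpc2, beside 1.05%. No member was led by fibroblast-like (beside 4.12% of genes), endothelial-like (2.57%), B cell-like (0.797%), T cell-like (0.706%), NK cell-like (0.615%), macrophage-like (0.249%) or plasmacytoid dendritic-like cells (0.266%). The highest class was the same in both libraries for 31 of 34 members, the exceptions being Slc2a3, Pfkfb3 and Pfkfb4. The share of all genes with the same highest class was not counted, so the 31 cannot be set against it. Pfkm is among the 31, although its order in RPE-like cells is not measured. The leading class of 13 of the 19 held under all 14 alternatives, while Hk2, Hk3, Pdhb, Pfkl, Pfkfb2 and Eno2 lost theirs in 1 to 3 of them. Some of these leads stand over a class with 0 UMIs. Set against the limit that a count of 0 allows, 14 of the 19 kept a 2-fold distance in both libraries. Hk3, Pfkfb2, Eno2, Slc16a3 and Pdhb did not, so a lead was not detectable at this depth for these 5. The shares of all genes were not set against that limit, so the 14 cannot be set beside them.

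**Figure D1:**
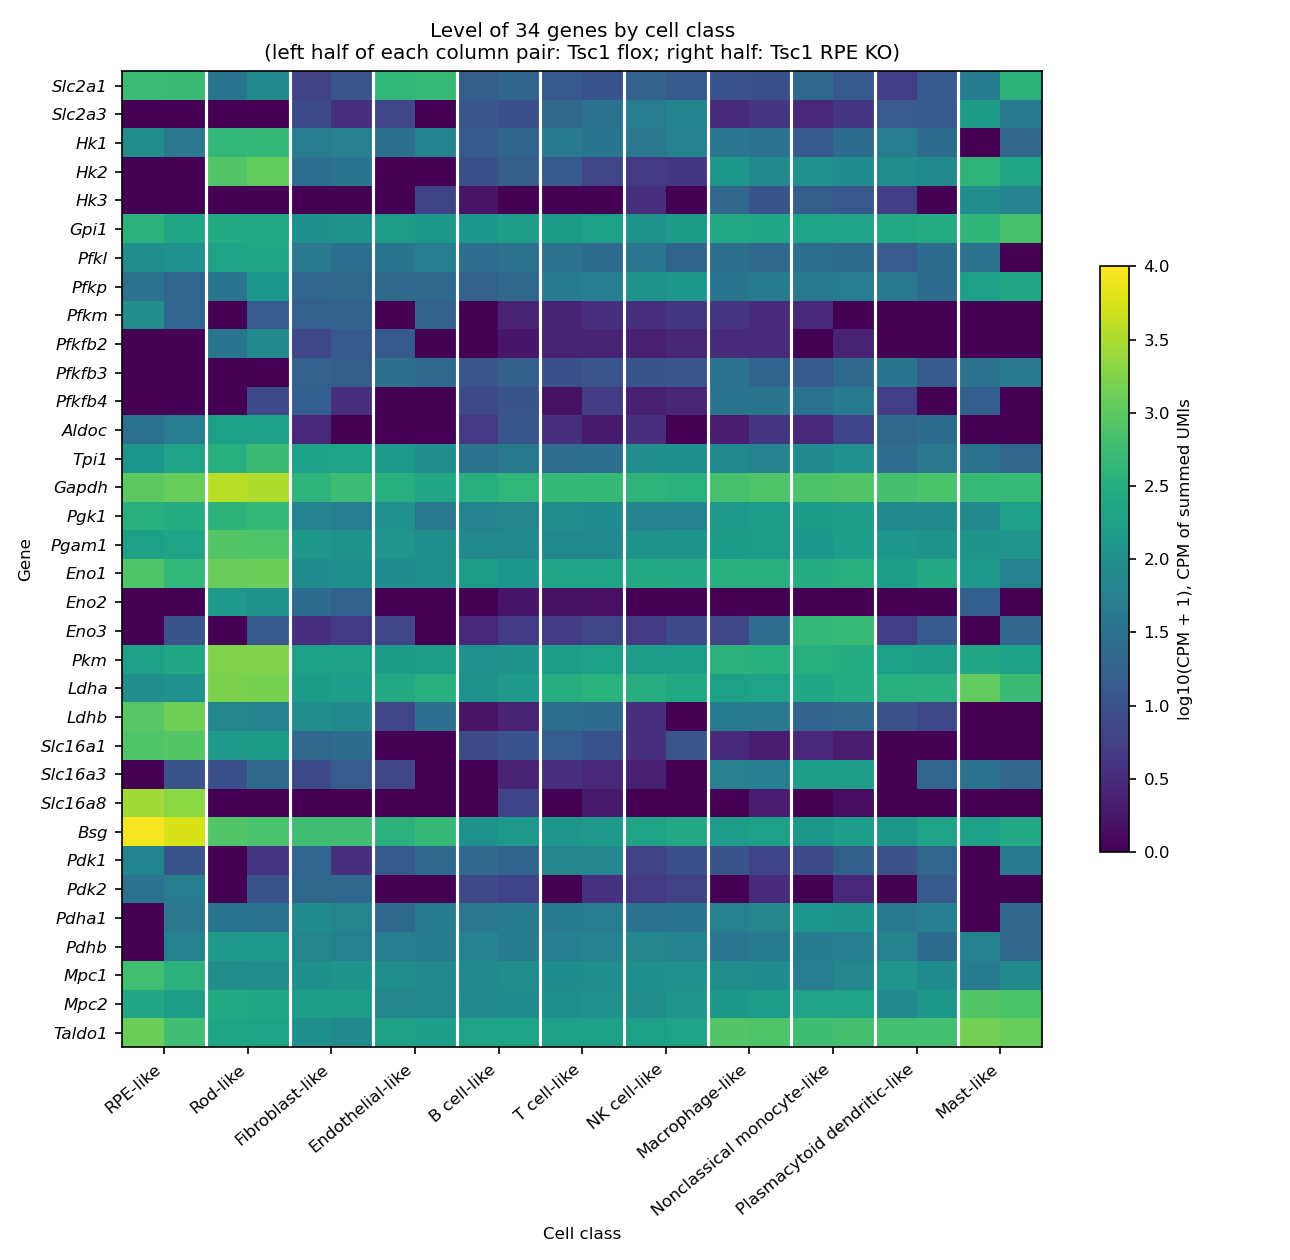
Each row is a gene and each column pair a cell class, with Tsc1 flox on the left and Tsc1 RPE KO on the right of the pair, and colour gives log10(CPM + 1). Slc16a8, Bsg, Slc16a1 and Ldhb are brightest in RPE-like cells, Hk2, Gapdh, Pkm and Ldha in rod-like cells, and Eno3 in nonclassical monocyte-like cells, in both libraries.

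Among the genes that carry lactate, Slc16a8 set RPE-like cells far apart from rod-like cells. Slc16a8 stood at 2804 CPM (90 UMIs) and 2079 CPM (219 UMIs) in RPE-like cells and had at least 1 UMI in 12 of 12 and 43 of 44 of them. In rod-like cells it had 0 UMIs in 42 and 176 cells, which allows up to 25.9 and 4.97 CPM and puts RPE-like cells at least 108-fold and 418-fold higher. In every other class it stayed at or under 5.29 CPM. That highest value elsewhere was 7 UMIs in B cell-like cells of Tsc1 RPE KO, 5 of them in 1 cell. Slc16a8 was itself among the 10 leading genes of the RPE-like cluster, although it took no part in forming or naming it.

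Slc16a1, which encodes the widely used carrier MCT1, was also highest in RPE-like cells at 779 and 873 CPM. The next class, rod-like cells, had 147 and 151 CPM, so RPE-like cells were 5.31-fold (2.75 to 10.5) and 5.79-fold (4.29 to 7.83) higher. Bsg was the most abundant member in RPE-like cells, with 8974 CPM (288 UMIs) and 5658 CPM (596 UMIs) and at least 1 UMI in all 12 and all 44 cells. Rod-like cells had 812 and 707 CPM of Bsg and fibroblast-like cells 584 and 600.3 CPM. The step down from RPE-like to rod-like cells was 11.1-fold (8.73 to 14.1) and 8.0-fold (7.05 to 9.08), with each library's interval far from 1.

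The 250 bases before the start sites of Slc16a8 and Slc16a1 are shown because these carriers share the RPE but differ in how widely they are used elsewhere. They come from RefSeq on GRCm38.p6 and are written 5' to 3' on the gene's strand. Capitals mark TAATCC (the core bound by OTX2 and CRX), CACGTG (an E-box) or ACGTG (the core bound by HIF), searched on both strands; ACGTG lies within CACGTG.
Slc16a8 chr15:79254749-79254998, minus strand: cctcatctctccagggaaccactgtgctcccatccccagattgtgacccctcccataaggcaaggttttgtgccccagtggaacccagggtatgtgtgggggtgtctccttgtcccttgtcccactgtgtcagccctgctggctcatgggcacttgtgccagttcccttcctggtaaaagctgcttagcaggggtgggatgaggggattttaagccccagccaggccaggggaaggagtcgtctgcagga
Slc16a1 chr3:104638414-104638663, plus strand: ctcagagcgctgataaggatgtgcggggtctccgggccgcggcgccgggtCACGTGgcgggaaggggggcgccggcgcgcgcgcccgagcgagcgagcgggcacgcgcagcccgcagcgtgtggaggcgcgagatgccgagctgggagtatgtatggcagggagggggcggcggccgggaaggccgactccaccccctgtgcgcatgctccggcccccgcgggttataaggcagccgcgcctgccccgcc
The Slc16a8 stretch held none of the 3 motifs, and that of Slc16a1 held CACGTG 200 bases before the start.

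Glucose transporters split by class as well. Slc2a1, which encodes GLUT1, had 561 CPM (332 to 886) and 541 CPM (410 to 701) in RPE-like cells and 439.7 and 493 CPM in endothelial-like cells, and these neighbours in the order do not differ beyond their intervals. Rod-like cells had 34.5 CPM (4 UMIs) and 79.5 CPM (48 UMIs), so RPE-like cells were 16.2-fold (5.35 to 66.0) and 6.81-fold (4.55 to 10.2) higher. A mast-like value of 382 CPM in Tsc1 RPE KO came from 19 UMIs, 18 of them in 1 cell. Slc2a3, which encodes GLUT3, the transporter known from neurons and leukocytes, had 0 UMIs in RPE-like and rod-like cells of both libraries. It made up 64.7% (52.2 to 75.9) and 77.1% (66.6 to 85.6) of the UMIs of both transporters in T cell-like cells and 73.1% and 84.1% in NK cell-like cells, but 1.3% and 0% in endothelial-like cells. B cell-like cells stood between, at 42.5% and 31.4%.

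Hexokinase traps glucose in the cell by phosphorylation. Hk2 had 829 CPM (671 to 1012) and 1149.5 CPM (1066 to 1238) in rod-like cells and 0 UMIs in the RPE-like cells of both libraries. Against the limit that a count of 0 allows, rod-like cells were at least 8.87-fold and 40.4-fold higher. Hk1 was also highest in rod-like cells, at 440.3 and 456 CPM, against 93.5 and 38.0 CPM in RPE-like cells (3 and 4 UMIs). Hk2 made up 65.3% (57.0 to 73.0) and 71.6% (68.7 to 74.4) of hexokinase UMIs in rod-like cells. Shares of that size were also seen in macrophage-like cells (70.1% and 66.7%) and nonclassical monocyte-like cells (79.7% and 69.8%). In lymphocytes Hk1 was the main form, with Hk2 at 21.7% and 14.5% in T cell-like and 8.6% and 5.6% in NK cell-like cells. Hk3, known from myeloid cells, was highest in mast-like cells at 89.0 CPM (6 UMIs) and 60.3 CPM (3 UMIs), and made up 10.7% and 8.1% of hexokinase UMIs in macrophage-like cells.

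Phosphofructokinase commits sugar to glycolysis. Its liver form Pfkl led in rod-like cells with 199 and 248 CPM, against 93.5 and 104 CPM in RPE-like cells. The platelet form Pfkp took 74.6% (65.9 to 82.0) and 85.6% (76.6 to 92.1) of the family's UMIs in NK cell-like cells and 58.2% and 66.7% in T cell-like cells, but 14.8% and 32.8% in rod-like cells. The muscle form Pfkm reached 21.4% and 26.9% in fibroblast-like cells and at most 4.5% in the leukocyte classes with a share. In RPE-like cells Pfkm had 3 UMIs in 1 cell of Tsc1 flox and 2 in Tsc1 RPE KO, so its order there is not measured. The exons of Pfkm overlap those of Gm26513, which is also in the gene list.

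The PFKFB enzymes divided the classes in another way. Pfkfb2 made up 92.5% (81.8 to 97.9) of the family in rod-like cells of Tsc1 RPE KO, with 81.2 CPM, and 34.5 CPM from 4 UMIs in Tsc1 flox. Pfkfb4 was the larger part in nonclassical monocyte-like cells (72% and 64.2%) and Pfkfb3 in T cell-like cells (81% and 65.6%). RPE-like cells had 0 UMIs of all 3 genes in both libraries, which allows up to 93.5 and 28.5 CPM for each.

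The middle and lower steps were rod-high. Gapdh had 3790.2 and 3309 CPM in rod-like cells, 966 and 1177 CPM in RPE-like cells and 238 to 807 CPM in the remaining classes. Pkm, whose product makes pyruvate, had 1753 and 1762 CPM in rod-like cells and 187 and 237 CPM in RPE-like cells, a 9.38-fold (4.23 to 25.8) and 7.43-fold (5.00 to 11.5) step. These counts do not separate the M1 and M2 splice forms of Pkm. Pgam1 stood at 846 and 788 CPM against 187 and 218 CPM, and Aldoc, the brain form of aldolase, at 181 and 184 CPM against 31.2 and 47.5 CPM. Tpi1 had 337 and 525 CPM in rod-like cells and 125 and 209 CPM in RPE-like cells. Pgk1 (389 and 452 CPM against 343 and 304 CPM) and Gpi1 (276 and 268 CPM against 374 and 247 CPM) lay closer together and were not 2-fold apart in either library.

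Enolase showed a form that marks one leukocyte class. Eno3, the muscle enolase, had 457 CPM (261 UMIs) and 505 CPM (1393 UMIs) in nonclassical monocyte-like cells. The next class, macrophage-like cells, had 6.04 and 25.8 CPM. It made up 60.7% (55.9 to 65.3) and 60.2% (58.1 to 62.2) of enolase UMIs in that class and 1.7% and 7.2% in macrophage-like cells. The macrophage-like share was 0.49% and 1.7% with a minimum of 1000 UMIs a cell and 0.51% and 1.0% at resolution 2. Both clusters of the nonclassical monocyte-like class showed a high Eno3 share, at 63.6% and 64.4% in the first and 56.8% and 52.4% in the second. Eno3 was among the 10 leading genes of the second, the cluster whose highest marker average was neutrophil. Eno2, the neuronal enolase, had 138 and 109 CPM in rod-like cells, where it was 10.3% and 7.9% of the family, and 21.4% and 14.1% in fibroblast-like cells on much lower totals. Eno1 itself had 779 and 446 CPM in RPE-like and 1209 and 1265 CPM in rod-like cells, and it took 100% and 97.9% in RPE-like cells. Eno1b, a near copy of Eno1, had 27 and 51 UMIs over all cells against 1771 and 2949 for Eno1.

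**Figure D2:**
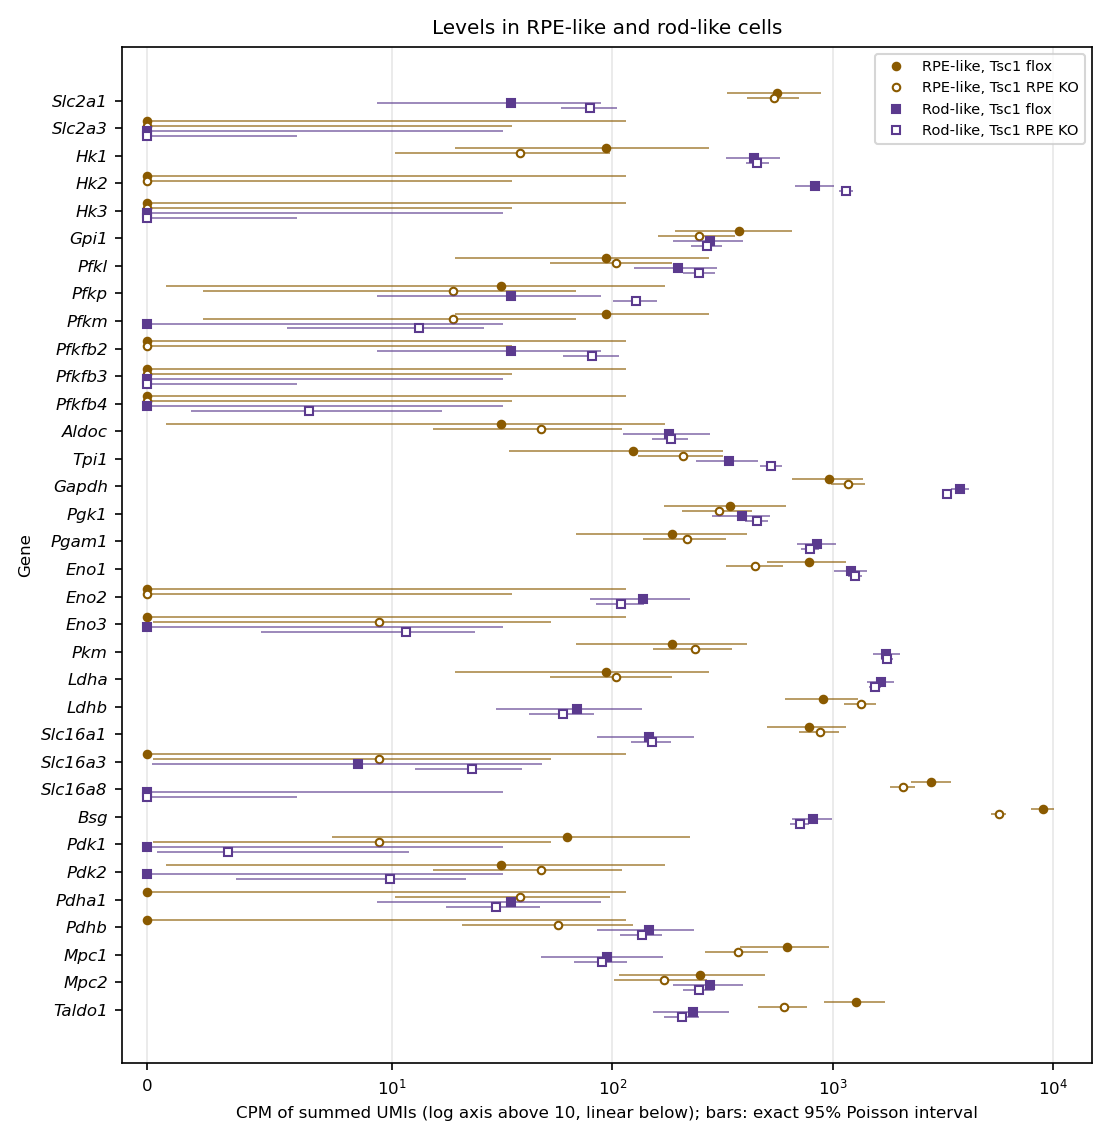
CPM of each gene (log axis above 10 and linear below) in RPE-like cells (circles) and rod-like cells (squares), filled for Tsc1 flox and open for Tsc1 RPE KO, with exact 95% Poisson intervals. Slc16a8 is at 2804 and 2079 CPM in RPE-like and 0 in rod-like cells, and Hk2 at 0 in RPE-like and 829 and 1149.5 CPM in rod-like cells.

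Lactate dehydrogenase split RPE-like from rod-like cells almost completely. Ldhb had 904 CPM (29 UMIs) and 1339 CPM (141 UMIs) in RPE-like cells and 69.1 and 59.6 CPM in rod-like cells, where the RPE-like level was 13.1-fold (5.84 to 33.1) and 22.4-fold (15.5 to 33.3) higher. Ldha had 1649 and 1554 CPM in rod-like cells and 93.5 CPM (3 UMIs) and 104 CPM (11 UMIs) in RPE-like cells, 17.6-fold (5.95 to 86.3) and 14.9-fold (8.28 to 29.9) lower. The Ldha level in RPE-like cells was under that of the free RNA of the same libraries, 315 and 491 CPM, and its 3 and 11 UMIs leave wide intervals. Ldhb therefore made up 90.6% (75.0 to 98.0) and 92.8% (87.4 to 96.3) of LDH UMIs in RPE-like cells and 4.0% (1.8 to 7.8) and 3.7% (2.6 to 5.1) in rod-like cells.

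Other cells lay between or beside the rods. Fibroblast-like cells had an Ldhb share of 37.2% (31.5 to 43.2) and 32.1% (25.5 to 39.2), carried by their larger cluster (39.0% and 35.8%) more than by the smaller one (17.4% and 8.0%). Macrophage-like cells had 19.0% and 16.2%, and nonclassical monocyte-like cells 6.5% and 6.2%. T cell-like cells had 8.2% and 6.5%, and the remaining lymphoid classes had less, at 0.5% and 1.1% in B cell-like and 0.8% and 0% in NK cell-like cells. Mast-like cells had 0 Ldhb UMIs in 74 and 26 LDH UMIs.

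The lactate carriers showed 3 patterns of choice. In RPE-like cells Slc16a8 made up 78.3% (69.6 to 85.4) and 70.2% (64.8 to 75.2) of carrier UMIs and Slc16a1 nearly all the rest, with 0 and 1 UMIs of Slc16a3. In nonclassical monocyte-like and macrophage-like cells Slc16a3, which encodes the exporter MCT4 known from glycolytic cells, made up 98.97% and 99.1% of the carrier UMIs in the first class and 96.4% and 96% in the second. In fibroblast-like cells (75% and 65.5%), T cell-like cells (84.8% and 76%) and rod-like cells of Tsc1 RPE KO (86.7%) Slc16a1 was the main carrier. Slc16a3 reached 168 and 165 CPM in nonclassical monocyte-like cells, 3.15-fold and 3.19-fold above macrophage-like cells.

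**Figure D3:**
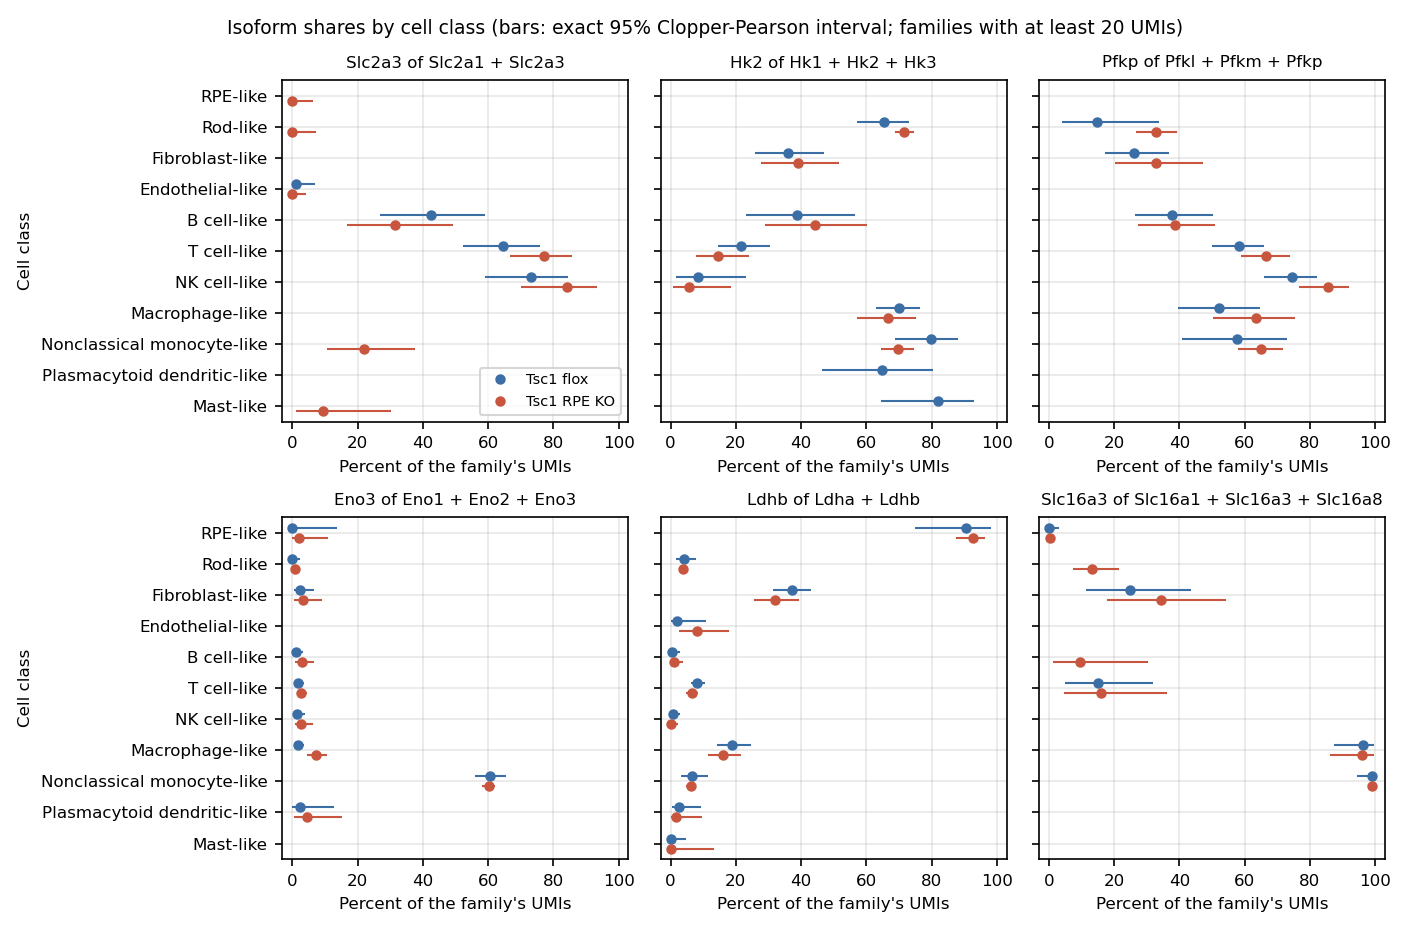
Share of a family's UMIs, in percent, taken by 1 isoform in each class (rows) and library (colours), with exact 95% Clopper-Pearson intervals, where the family had at least 20 UMIs. The Ldhb share is 90.6% and 92.8% in RPE-like cells and 4.0% and 3.7% in rod-like cells, and the Eno3 share passes 60% in nonclassical monocyte-like cells alone.

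At the entry of pyruvate to the mitochondrion, Mpc1, a subunit of the carrier, led in RPE-like cells with 623 and 370.2 CPM, against 94.97 and 89.4 CPM in rod-like cells. Its partner Mpc2 did not share that pattern: RPE-like cells had 249.3 and 171 CPM, rod-like cells 276 and 247 CPM, and mast-like cells led with 831 and 743 CPM. Of the pyruvate dehydrogenase subunits, Pdhb was highest in rod-like cells at 147 and 136 CPM and Pdha1 in nonclassical monocyte-like cells at 126 and 111.4 CPM, with 0 and 4 Pdha1 UMIs in RPE-like cells. Pdk1, which encodes a kinase that switches pyruvate dehydrogenase off, was highest in T cell-like cells at 66.1 and 69.4 CPM, where Pdk1 made up 100% and 96% of the UMIs of both kinases. Within T cell-like cells Pdk1 had 66 and 73 UMIs in the 122 and 133 cells of cluster 4 and 7 UMIs each in the 36 and 48 cells of cluster 12. Pdk2 had 52.2% of the pair in fibroblast-like cells of Tsc1 flox. Taldo1, the transaldolase that links pentose phosphates to glycolysis, had 1277.5 and 598 CPM in RPE-like cells, 233 and 207 CPM in rod-like cells and a higher level still in mast-like cells, at 1439 and 1185 CPM.

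Set side by side, 24 members had at least 50 UMIs over RPE-like and rod-like cells. Of these 7 were at least 2-fold higher in RPE-like cells in both libraries (Slc2a1, Ldhb, Slc16a1, Slc16a8, Bsg, Mpc1 and Taldo1), where 7.72% of 3095 genes were. In the other direction 12 were at least 2-fold lower (Hk1, Hk2, Pfkl, Pfkfb2, Aldoc, Tpi1, Gapdh, Pgam1, Eno2, Pkm, Ldha and Pdhb), where 44.4% of genes were, a share near that of the members. For Pfkfb2, Eno2 and Pdhb the Tsc1 flox side rests on 0 UMIs in RPE-like cells. It is not 2-fold under the limit that this count allows, which leaves 9 of the 12. The shares of all genes lower in RPE-like cells were not cut in this way, so the 9 cannot be set beside them. Against fibroblast-like cells, 12 of 21 members were higher in RPE-like cells, beside 6.03% of genes, while 1, Hk2, met the rule for lower, beside 44.4%, on 0 UMIs in RPE-like cells, so that a lower level was not detectable at this depth. Rod-like cells were higher than fibroblast-like cells in 17 of 24 members, beside 14.0%, and lower in Pdha1 alone, beside 27.2%. Slc2a1, Gpi1, Pfkl, Gapdh, Pgk1, Eno1, Slc16a1 and Taldo1 were above fibroblast-like cells in both RPE-like and rod-like cells.

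The upstream stretches of 3 genes with their highest CPM in rod-like cells are shown because they hold examples of the 3 motifs searched. They follow the same conventions as above.
Hk2 chr6:82774455-82774704, minus strand: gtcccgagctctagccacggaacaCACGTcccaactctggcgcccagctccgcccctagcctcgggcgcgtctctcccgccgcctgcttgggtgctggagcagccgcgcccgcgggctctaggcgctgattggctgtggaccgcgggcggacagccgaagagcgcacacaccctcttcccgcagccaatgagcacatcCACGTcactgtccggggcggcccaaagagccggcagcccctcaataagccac
Aldoc chr11:78322823-78323072, plus strand: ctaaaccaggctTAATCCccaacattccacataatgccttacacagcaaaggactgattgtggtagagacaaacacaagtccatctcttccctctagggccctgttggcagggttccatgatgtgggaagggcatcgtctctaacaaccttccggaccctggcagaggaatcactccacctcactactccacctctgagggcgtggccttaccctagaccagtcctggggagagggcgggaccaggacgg
Pfkfb2 chr1:130715822-130716071, minus strand: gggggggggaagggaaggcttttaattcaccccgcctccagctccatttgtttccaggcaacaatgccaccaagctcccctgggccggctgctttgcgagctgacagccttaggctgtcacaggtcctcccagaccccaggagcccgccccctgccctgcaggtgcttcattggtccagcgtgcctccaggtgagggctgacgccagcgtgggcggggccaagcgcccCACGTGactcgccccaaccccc
Hk2 held ACGTG 226 and 52 bases before the start, Aldoc held TAATCC 238 bases before the first of its 2 start sites, and Pfkfb2 held CACGTG 22 bases before the first of its 3. In windows from 250 bases before to 50 after any start site, ACGTG was in 8 of the 10 rod-led members (all but Pfkl and Eno2), in 1 of the 4 RPE-led members with a promoter in the table (Slc16a1) and in 17 of the 32 members with one. Among all 27025 genes with a promoter there, 21.8% held it. TAATCC was in 1 of 10 rod-led and 0 of 4 RPE-led members, beside 8.14% of genes, and CACGTG in 1 of each, beside 8.09%. Of the 8 rod-led members with ACGTG, Hk1, Aldoc and Gapdh held it only after the start. The leads of Pfkfb2 and Pdhb were not detectable at this depth. The shares of all genes were not matched for base content or expression. Genes with more start sites had more chances of a match, and a match shows only that the letters are there.

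The 65 further genes of the pathway come from a fixed list not picked for how they moved, though it was chosen with earlier results of these data known. Of these, 42 had at least 50 UMIs and 6 of the 42 had a leading class (14.3%, beside 17.3% of all genes). Rod-like cells led for Hif1a, the oxygen-sensing factor that drives glycolytic genes (717 and 807 CPM), Got1 of the malate-aspartate shuttle (207 and 242 CPM), the carrier Slc16a6 (164 and 209 CPM) and Tigar (34.5 and 49.7 CPM). The Tsc1 flox value of Tigar rests on 4 UMIs. It is under the 93.5 CPM that 0 UMIs allow in RPE-like cells there, so a lead was not detectable at this depth. RPE-like cells met the rule for the transporter Slc2a12 at 62.3 and 28.5 CPM, on 2 and 3 UMIs. A count of 0 in mast-like cells of Tsc1 RPE KO allows up to 60.3 CPM (3 counts). A lead of Slc2a12 was therefore not detectable at this depth either. Endothelial-like cells led for Epas1, another oxygen-sensing factor (804 and 714 CPM). The leads other than those of Tigar and Slc2a12 were not set against that limit. Aldoa, the main aldolase, had 997 and 1509 CPM in RPE-like cells and 2590.1 and 2699.9 CPM in rod-like cells, so Aldoc was 3.0% of the pair's UMIs in RPE-like and 6.5% and 6.4% in rod-like cells.

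Between genotypes, RPE-like cells of Tsc1 RPE KO had lower levels of Bsg and Taldo1 than those of Tsc1 flox, while Slc2a1 and Slc16a1 differed by less than their counting error. A ratio of at least 1.5 or at most its inverse was counted among genes with at least 50 UMIs over both libraries, which 9 members reached. No member was higher by that measure, where 14.7% of 334 genes were, and 4 were lower, where 13.2% were. The median log2 ratio was -0.43 for the 9 members (-0.54 to -0.17 over the alternatives) and -0.06 for all 334 genes. Taldo1 went from 1277.5 to 598 CPM, a ratio of 0.468 (0.311 to 0.712). Bsg went from 8974 to 5658 CPM, a ratio of 0.63 (0.547 to 0.728) that lay between 0.734 and 0.743 when cells with at least 1000 or 500 UMIs were taken. Eno1 went from 779 to 446 CPM, a ratio of 0.573 (0.345 to 0.971) that was 0.817 with cells of at least 500 UMIs. Mpc1 had a ratio of 0.594 (0.338 to 1.08), whose interval holds 1.

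The other 5 members stayed inside 1.5-fold. Slc16a8 went from 2804 to 2079 CPM, a ratio of 0.741 (0.577 to 0.958), and Slc16a1 had a ratio of 1.12. Slc2a1 had a ratio of 0.965 (0.56 to 1.74). Gapdh had a ratio of 1.22 (0.817 to 1.87) and Ldhb of 1.48 (0.988 to 2.29), just under the fold used. These values rest on 12 cells against 44, with medians of 2582 and 2096.5 UMIs. The summed RPE markers ranged from 6.89% to 16.3% of a cell's UMIs in Tsc1 flox and from 2.97% to 21.2% in Tsc1 RPE KO, and the share of free RNA, estimated from hemoglobin UMIs, was 0.562% and 0.357%. The part of depth, cell number and marker content in the ratios was not tested, and with 1 pool per genotype genotype and pool cannot be told apart.

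In rod-like cells, which the labelled deletion does not target, other members passed 1.5-fold, at a share near that of all genes. Of 22 members measured, 4 were higher in Tsc1 RPE KO, where 17.0% of 2712 genes were, and 0 were lower, where 6.38% were. The median log2 ratio was 0.01 for these members and 0.05 for all 2712 genes. Tpi1 went from 337 to 525 CPM, a ratio of 1.56 (1.12 to 2.23). The other 3, Pfkp (3.69, 1.39 to 13.9), Pfkfb2 (2.35, 0.862 to 8.97) and Slc2a1 (2.30, 0.843 to 8.79), each rest on 4 UMIs in Tsc1 flox. Hk2 had a ratio of 1.39 (1.12 to 1.74), and Gapdh was at 0.873 (0.787 to 0.97). The rod-like class is made of 2 clusters held in different proportion, 25 and 156 cells of cluster 8 and 17 and 20 of cluster 15, and in cluster 15 alone the Tpi1 ratio was 0.798. Slc2a1 and Pfkp had 0 UMIs there in Tsc1 flox, against 3 and 5 in Tsc1 RPE KO.

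Over all classes other than RPE-like cells, 156 pairs of member and class were measured, 10 of them higher and 2 lower in Tsc1 RPE KO, and 4 of these 12 had an interval that left out 1. Fibroblast-like (18 members measured, beside 4.11% higher and 7.0% lower among all genes), endothelial-like (7, beside 7.28% and 8.98%), B cell-like (17, beside 2.66% and 4.05%) and T cell-like cells (20, beside 4.58% and 2.37%) had none past 1.5-fold. Hk2 in macrophage-like cells went from 132 to 79.6 CPM, a ratio of 0.604 (0.448 to 0.81), the 1 member lower of 21, beside 4.13% of genes, with 0 higher, beside 4.91%. Ldha in mast-like cells went from 1098 to 522 CPM, a ratio of 0.476 (0.292 to 0.753), on 13 and 12 cells, beside 12.4% lower among all genes. In nonclassical monocyte-like cells Hk1 (2.07, 0.955 to 5.35) and Pfkfb3 (1.90) were higher of 23 measured, beside 10.4%. Gpi1 in mast-like (1.64, beside 5.45%), Hk1 in NK cell-like (1.56, beside 3.62%, with 0 members lower, beside 5.32%) and Eno1 and Bsg in plasmacytoid dendritic-like cells (1.56 and 1.54, beside 6.23%) made up the rest.

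**Figure D4:**
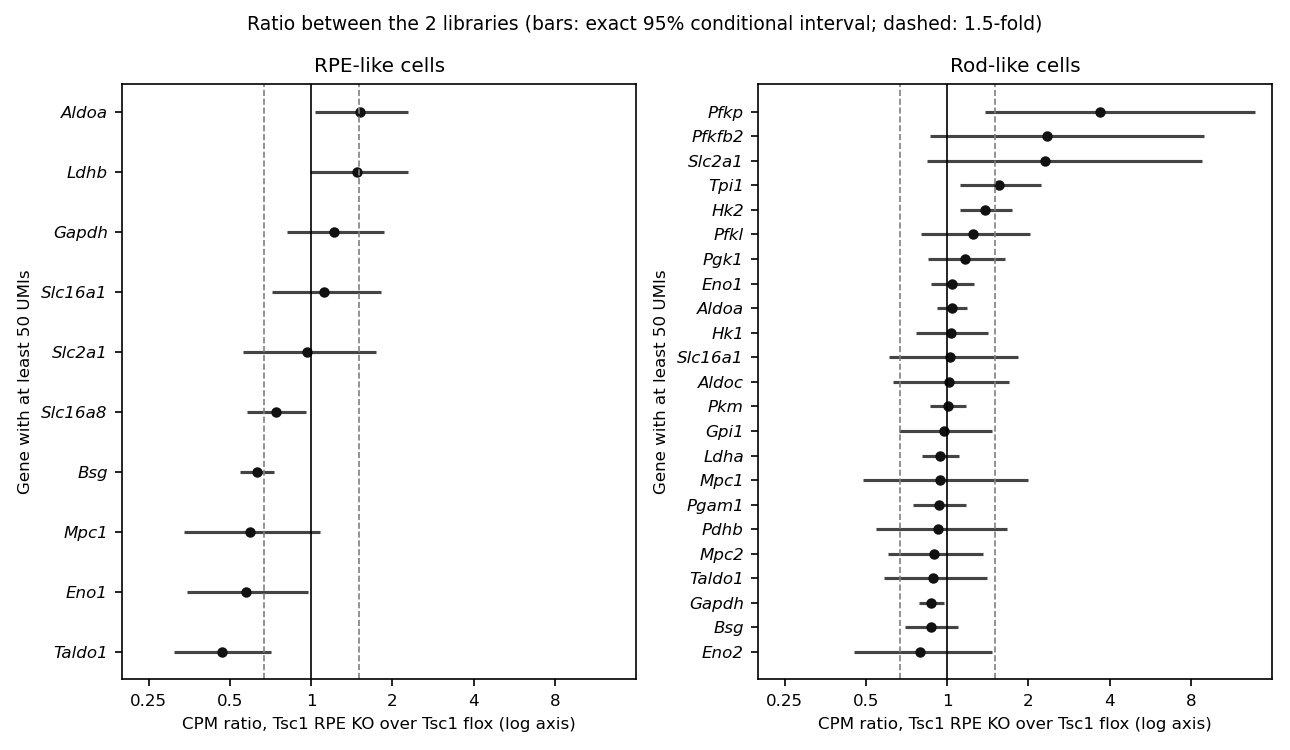
CPM ratio of Tsc1 RPE KO over Tsc1 flox (log axis) for each member with at least 50 UMIs in RPE-like cells (left) and rod-like cells (right), with exact 95% intervals and dashed lines at 1.5-fold. In RPE-like cells Taldo1, Eno1, Mpc1 and Bsg lie below the lower line, and in rod-like cells Pfkp, Pfkfb2, Slc2a1 and Tpi1 lie above the upper line.

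Shares of a member in its family could be given in both libraries for 144 pairs of member and class. The intervals of the libraries lay apart for 2, Eno1 and Eno3 in macrophage-like cells. Of the 144, 19 were over 10 percentage points apart, and overlap of wide intervals does not show that shares are equal. The Ldhb share of RPE-like cells was 90.6% and 92.8% and that of rod-like cells 4.0% and 3.7%, with overlapping intervals within each class. The Slc16a8 share of RPE-like cells, 78.3% and 70.2%, and the Hk2 share of rod-like cells, 65.3% and 71.6%, also had overlapping intervals. The Eno3 share of nonclassical monocyte-like cells was 60.7% and 60.2%. No test between genotypes was possible for these shares. Among the further pathway genes, 2 of 65 were measured in RPE-like cells, of which Aldoa was higher at a ratio of 1.51 (1.03 to 2.29; 1.23 to 1.25 at lower UMI minimums) and Mdh1 had 0.806 (0.453 to 1.5). In rod-like cells 11 were measured, with Bpgm higher at 1.62 (0.81 to 3.68) and Egln1 lower at 0.665 (0.369 to 1.27).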

How the data were processed

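The authors deposited raw UMI counts for each gene in every barcode, unfiltered. Tsc1 flox had 661479 barcodes (10771118 UMIs) and Tsc1 RPE KO 728310 (12574364 UMIs). Per the submitters' processing notes, Cell Ranger 2.1.1 and mm10 were used, while the file headers name Cell Ranger 4, and the labels name a 3' v2 kit, although the authors' lists hold 1207754 distinct barcodes, so program version and kit remain unsettled.

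Barcodes were called as cells above 10% of the 99th percentile of the top 3000 (1487.4 and 1373.6 UMIs) and from 200 genes (55 and 68 barcodes removed). A limit of 20% mitochondrial UMIs removed 0, and Scrublet in scanpy 1.11.5 removed 8 and 19 doublets. The 2000 most variable genes without members gave 30 principal components and 20 clusters (leidenalg 0.10.2, resolution 1). A cluster took the class of highest average markers among classes with at least 3 passing markers. That last condition was set after the clusters had been seen, since the first rule gave rods a cone name with no passing marker. The condition also decided the name of cluster 10 (30 and 118 cells), nonclassical monocyte-like. Its highest average was neutrophil, with 1 passing marker. The names ending in "-like" are rebuilt.

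CPM intervals are Poisson, ratio intervals conditional binomial and share intervals Clopper-Pearson, all exact (scipy 1.17.1). They were run on counts simulated from the same models, without spread over cells or mice. That run checks the code and not whether the intervals are wide enough for these data. Genes were called measured at 50 UMIs over both libraries, shares were given for families with at least 20 UMIs, and every member was accounted for. Further pathway genes were named where past 1.5-fold or leading a class. Isoforms are genes here, and 2 rows share the symbol Aldoa, of which the one with counts was used by identifier. Promoters are from the RefSeq table of GRCm38.p6. The members and lists were chosen with earlier results of these data known.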

Additional observations from a re-analysis of the deposited data

Results flagged for a closer look

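Aldoa, the main aldolase, differed between genotypes in opposite directions in 2 classes. In RPE-like cells it had 997 and 1509 CPM, a Tsc1 RPE KO over Tsc1 flox ratio of 1.51 (1.03 to 2.29), and in endothelial-like cells 411 and 261 CPM, a ratio of 0.634 (0.428 to 0.932). The RPE-like ratio was 1.23 and 1.25 at minimums of 1000 and 500 UMIs and 1.39 with cells weighted equally, and the endothelial-like ratio ranged from 0.603 to 0.682. The difference between these ratios was not tested.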

How the results depend on the processing

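No paired analysis was possible because each genotype has 1 library, and no replicate could be left out. Of 5502 values under the alternatives, 5374 stayed within the limit set for them, 120 moved by more and 8 reversed. The limit was the counting interval for ratios and shares, a 1.5-fold change for counts of genes and a fixed log2 distance for medians. Of the 8 that reversed, 2 were ratios and the rest medians near 0 in the main setting. Among the members in RPE-like cells, 1 was higher (in place of 0) with mixed barcodes kept, with median-of-ratios scaling and from 20 UMIs, and 3 were higher and 13 lower (in place of 4) from 1 UMI. In rod-like cells 0 were higher (in place of 4) with clusters named by the highest average alone, and 5 were lower (in place of 0) from 1 UMI. Over all other classes 16, 57 and 6 pairs were higher (in place of 10) from 20 UMIs, from 1 UMI and with names by highest average, and 10 and 40 were lower (in place of 2) from 20 and 1 UMIs and 1 with members among the variable genes and at resolutions 0.5 and 2. Of the further pathway genes in RPE-like cells 0 were higher (in place of 1) at minimums of 1000 and 500 UMIs and with cells weighted equally, and 5 from 1 UMI, and 1 and 21 were lower (in place of 0) from 20 and 1 UMIs. In rod-like cells 0 were higher at minimums of 1000 and 500 UMIs, with equal weights and with names by highest average, 4 from 20 and from 1 UMI, and 0 were lower at both minimums and with names by highest average, 4 from 20 and 18 from 1 UMI (in place of 1 each). The median log2 ratio of members in rod-like cells, 0.01, became -0.035 with median-of-ratios scaling, -0.0056 without ribosomal and mitochondrial genes, -0.0028 with equal weights, -0.017 from 20 UMIs, -0.086 from 1 UMI and -0.38 with names by highest average, which also turned the rod-like ratio of Tpi1 to 0.798 and put that of Slc2a1, with 0 UMIs in Tsc1 flox, at 0.737 against the limit of a count of 0, a lower bound. The same naming gave Hk2 shares of 51.4% and 62.3% and an Ldhb share of 11.3% (Tsc1 RPE KO) in rod-like cells, and in nonclassical monocyte-like cells a Slc16a3 share of 100% (Tsc1 flox) and an Eno3 share of 64.4% (Tsc1 RPE KO). That Eno3 share was 62.4% at 500 UMIs, 64.2% with members among the variable genes and 64.1% at resolution 2, and the Slc16a3 share was 100% with free RNA subtracted. In these cases the cause was not tested. Leaving out barcodes with cone RNA, and barcodes called in both libraries, and naming by highest average were added after seeing the data. Plasmacytoid dendritic-like cells gave no value at 1000 UMIs, those and macrophage-like cells none at 500 UMIs and resolution 0.5, and macrophage-like cells none with members among the variable genes. In RPE-like cells, 12 Tsc1 flox cells allow 93.5 CPM at a count of 0.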
